A study of Bos taurus with 28 samples.

Results

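The milk miRNAs described here were bta-miR-25, bta-miR-92a, bta-miR-363 and bta-miR-32, which share a seed, and bta-miR-93, which lies next to miR-25 in the genome but has another seed. They were chosen by name, for the seed or the cluster they share, and are 5 of the 132 miRNAs measured in milk extracellular vesicles (EVs). The seed, bases 2 to 8 of the mature miRNA, does most of the pairing with a target mRNA, so miRNAs with a common seed are predicted to repress a common set of targets. miRNAs of a cluster lie side by side and can be cut from a common primary transcript, so a shared cluster concerns production and a shared seed concerns targets. The clusters named here are known in human and mouse cells for promoting proliferation, and miR-92a is also known as an abundant miRNA of blood cells. The question asked was whether members with a common seed, or members with a common cluster, were found together in milk EVs.

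The members come from several places in the bovine genome. In the RefSeq annotation of the assembly ARS-UCD2.0, the genes of miR-25 and miR-93 stood on chromosome 25 within MCM7, which encodes a helicase subunit of DNA replication, with MIR106B as their neighbour. miR-92a has 2 hairpin genes, MIR92A-1 on chromosome 12 beside MIR17, MIR18A, MIR19A, MIR20A and MIR19B, and MIR92A-2 on chromosome X beside MIR363, MIR19B-2, MIR20B, MIR18B and MIR106A. The table has 1 value for miR-92a, so reads from these hairpins cannot be told apart. MIR32 stood on chromosome 8 within TMEM245 with no other miRNA gene within 10 kb. Of the 10 pairs that 5 members form, 5 shared the seed only, 1 (miR-92a with miR-363) shared the seed and a cluster, 1 (miR-25 with miR-93) shared the cluster only, and 3 shared neither.

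Skim milk EVs were taken from 4 dairy cows, named Cow 1 to Cow 4, in evening and morning milking sessions on 4 consecutive days. Small RNA of 28 samples was sequenced, 6 from Cow 3, 6 from Cow 1, 8 from Cow 2 and 8 from Cow 4, in 14 pairs of an evening and a morning milking of the same cow and day. Cow 3 has no library here from day 3 and Cow 1 none from day 2. The cows had been chosen for a negative California Mastitis Test, and the somatic cell count (SCC) of each milk, the number of mostly immune cells per mL, ran between 18000 and 300000 cells/mL in the sequenced samples. Each cow is 1 animal and its libraries are repeated milkings of that animal, so a p-value for a difference between cows measures it against the spread between milkings, and the cow cannot be told apart from anything else that set these animals apart. Age, breed and stage of lactation are not given in the sources used here.

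The values are log2 CPM, reads scaled to a common library size. The reads behind them could be worked back as whole numbers and summed to 101968 to 325211 per library (median 158620) over the 132 miRNAs. A count of 0 reads is listed as 3.55 throughout, or 11.7 CPM, because the listed values include a prior count added to the reads. The lowest level that can be told from 0 was taken as 3 reads, which are 8.35 to 32.4 CPM depending on the library. This range is without the prior count and is not on the scale of the listed values. For miR-363, 3 reads were listed as 31.3 CPM in Cow 1 day 3 evening. The correlation across miRNAs between any 2 libraries lay between 0.923 and 0.991. In EVs pooled from skim milk, fewer vesicles of one origin and less of a miRNA in each vesicle cannot be told apart.

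The members differed widely in level. miR-92a held rank 13 of 132 by its mean level, with 90234 reads in all libraries together. miR-25 held rank 38 with 12500 reads, miR-32 rank 65 with 2485 reads, miR-93 rank 81 with 1091 reads and miR-363 rank 112 with 309 reads. This order of the mean levels, 14.15, 11.32, 8.82, 7.73 and 5.88 in log2 CPM, spans a wide range, so the counting error of the rarer members is larger. The spread between milkings of a cow was 0.28 for miR-92a, 0.30 for miR-25, 0.53 for miR-32, 0.51 for miR-93 and 0.89 for miR-363 as a pooled SD in log2, against SDs from counting alone of 0.03, 0.07, 0.18, 0.26 and 0.39. As a description, the spread between milkings was 10.2 times the counting SD for miR-92a, 4.15 times for miR-25, 2.89 times for miR-32, 2.27 times for miR-363 and 1.96 times for miR-93, with a median of 2.69 times over all 132 miRNAs. Differences between cows made up 64.5% of the variance of miR-92a, 44.8% of that of miR-363, 42.3% of that of miR-32, 35.7% of that of miR-25 and 29.8% of that of miR-93, with a median of 26.8% over all 132 miRNAs.

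**Figure D1:**
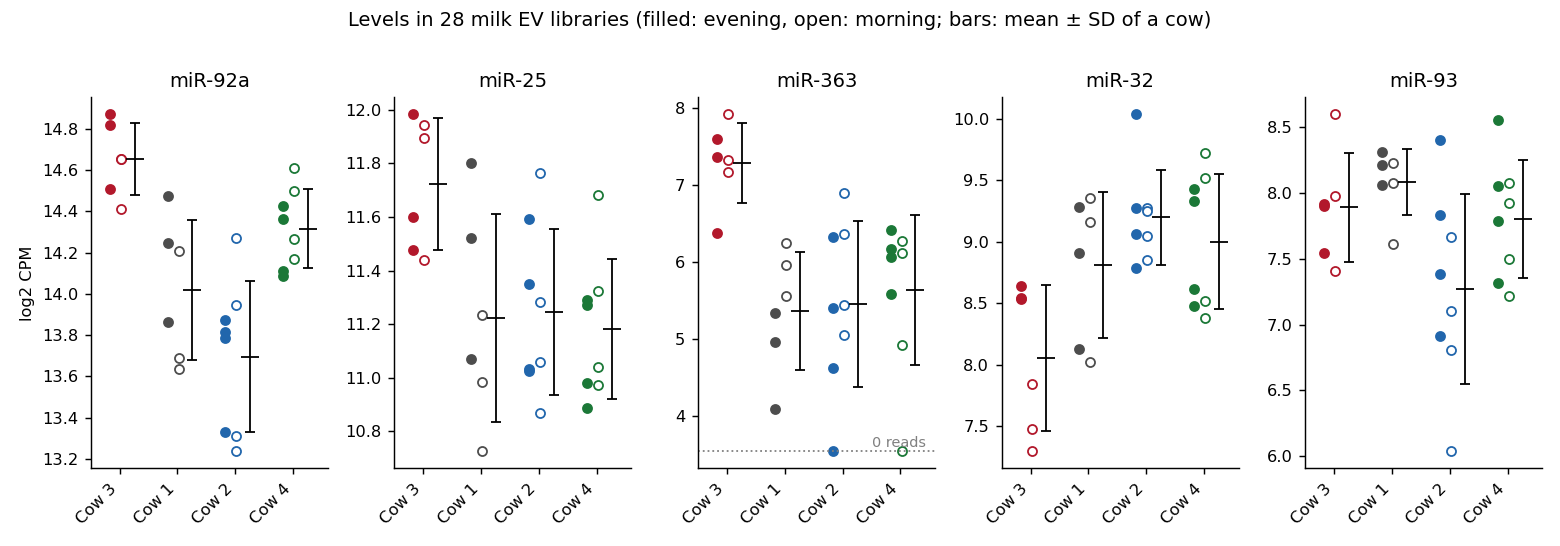
Level of each member in every library, in log2 CPM on the vertical axis (each panel with its own range), by cow on the horizontal axis. Filled points are evening and open points morning milkings, and the bars give the mean ± SD of a cow. miR-92a was highest in Cow 3 (mean 14.65), miR-363 stood at a mean of 7.29 in Cow 3 and at 5.36 to 5.64 in the others, and miR-32 was lowest in Cow 3 (mean 8.06).

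miR-92a, miR-25 and miR-363 were higher in Cow 3 than in other cows, miR-32 was lower there, and miR-93 missed the threshold against every cow, which it passed against Cow 2 in some alternative fits. In a limma F test of the 4 cow means, 62 of the 132 miRNAs passed an FDR of 0.05 after Benjamini-Hochberg adjustment over all of them (47%), and 4 of the 5 members did. miR-92a had F = 14.8 (adjusted p = 3.34e-05), miR-363 F = 7.32 (adjusted p = 0.00356), miR-32 F = 6.32 (adjusted p = 0.00699) and miR-25 F = 4.48 (adjusted p = 0.0250), while miR-93 had F = 3.36 (adjusted p = 0.0644). With the cow-day pair of milkings as a block, the call of miR-25 was lost (adjusted p = 0.0764) and 3 members passed. It was also lost without the day 2 morning (limma adjusted p = 0.0647), the day 4 evening (0.0866) or the day 4 morning library (0.0811) of Cow 3. miR-93 passed with library medians set equal (limma adjusted p = 0.0271), with the library total as a covariate (0.0291), and without Cow 1 day 4 morning (0.0490), Cow 2 day 2 evening (0.0126), Cow 2 day 3 evening (0.0404) or Cow 4 day 1 morning (0.0467).

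miR-92a, the most abundant member, lay between 14.41 and 14.87 log2 CPM in the 6 libraries of Cow 3 (median 14.65). It lay between 13.63 and 14.47 in Cow 1 (median 14.04), between 13.24 and 14.27 in Cow 2 (median 13.80) and between 14.09 and 14.61 in Cow 4 (median 14.31). The libraries of Cow 3 did not overlap with those of Cow 2, and their lowest values overlapped with the highest of Cow 1 and Cow 4. Cow 3 was higher than Cow 2 by 0.96 in log2 (SE 0.15, 95% interval 0.65 to 1.27, 1.94-fold, limma adjusted p = 6.7e-06). It was higher than Cow 1 by 0.63 (SE 0.16, 1.55-fold, limma adjusted p = 0.00444). The difference from Cow 4 was 0.34 (95% interval 0.03 to 0.65) and missed the threshold (limma adjusted p = 0.109), which it passed with session and day as covariates (0.42, limma adjusted p = 0.0116) and with quantile normalization (0.41, 0.0399). miR-92a was also the only member that separated any 2 of the other cows, being lower in Cow 2 than in Cow 4 by 0.62 (log2 difference -0.62, SE 0.14, limma adjusted p = 0.00164), a comparison in which 18.9% of all miRNAs passed.

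miR-25, whose gene lies within MCM7, lay between 11.44 and 11.98 log2 CPM in Cow 3 (median 11.75). Its range was 10.73 to 11.80 in Cow 1 (median 11.15), 10.87 to 11.76 in Cow 2 (median 11.17) and 10.89 to 11.68 in Cow 4 (median 11.16). The ranges of all cows overlapped, while the means of Cow 1, Cow 2 and Cow 4 (11.22 ± 0.39, 11.25 ± 0.31 and 11.18 ± 0.26, SD, n = 6, 8 and 8) were close to each other and that of Cow 3 was 11.72 ± 0.25 (SD, n = 6). Cow 3 was higher than Cow 1 by 0.50 (SE 0.17, limma adjusted p = 0.0362), than Cow 2 by 0.48 (SE 0.16, limma adjusted p = 0.0230) and than Cow 4 by 0.54 (SE 0.16, limma adjusted p = 0.0122). With the cow-day pair as a block, limma gave adjusted p-values of 0.0879 against Cow 1, 0.0604 against Cow 2 and 0.0364 against Cow 4, so that the calls against Cow 1 and Cow 2 were lost. The call against Cow 1 was also lost without any 1 of Cow 3 day 2 morning, day 4 evening and day 4 morning and Cow 1 day 1 evening, day 1 morning, day 3 morning and day 4 morning (adjusted p between 0.0550 and 0.110). The call against Cow 2 was lost without any 1 of the same 3 libraries of Cow 3 and Cow 2 day 1 morning (adjusted p between 0.0510 and 0.0675). The call against Cow 4 held without any single library and was lost without both libraries of Cow 3 day 4 (limma adjusted p = 0.124) or of Cow 4 day 4 (0.0583).

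miR-363, from the cluster on chromosome X, had few reads outside Cow 3. It had 30 and 38 reads in the evening and the morning of day 1 of Cow 3, 9 and 15 on day 2, and 32 and 21 on day 4, and 0 to 20 reads in the other 22 libraries, so that Cow 3 gave 145 of the 309 reads. Its log2 CPM was 6.38 to 7.92 in Cow 3 (median 7.34), 4.10 to 6.25 in Cow 1 (median 5.45), 3.55 to 6.90 in Cow 2 (median 5.42) and 3.55 to 6.41 in Cow 4 (median 6.10). The libraries of Cow 3 did not overlap with those of Cow 1, and their lowest, day 2 evening, fell within the ranges of Cow 2 and Cow 4. The fitted difference, which for so few reads also depends on the prior count in the values, was 1.93 over Cow 1 (SE 0.48), 1.83 over Cow 2 (SE 0.45) and 1.65 over Cow 4 (SE 0.45), with limma adjusted p-values of 0.00387, 0.00175 and 0.00709. These were the largest differences among the members. The calls held with the pairs as a block (limma adjusted p between 0.0114 and 0.0310). In morning libraries alone, which hold fewer samples, the call among the 4 cows was lost (limma adjusted p = 0.0842). Those against Cow 1 (0.225) and Cow 2 (0.0969) were lost there too. In evening libraries alone the call against Cow 4 was lost (limma adjusted p = 0.247).

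miR-32, whose gene lies within TMEM245 and outside any cluster, moved the other way although it shares the seed. It lay between 7.30 and 8.65 log2 CPM in Cow 3 (median 8.19), 8.02 and 9.36 in Cow 1 (median 9.04), 8.79 and 10.04 in Cow 2 (median 9.16) and 8.38 and 9.72 in Cow 4 (median 8.98). The libraries of Cow 3 did not overlap with those of Cow 2. Cow 3 differed from Cow 2 by -1.14 (SE 0.27, 0.453-fold, limma adjusted p = 0.00155) and from Cow 4 by -0.94 (SE 0.27, 0.520-fold, limma adjusted p = 0.00975). The difference from Cow 1 was -0.75 (95% interval -1.35 to -0.16, limma adjusted p = 0.0589) and passed the test without the 4 libraries from milk above 150000 cells/mL (-1.12, limma adjusted p = 0.010) or without Cow 3 day 1 evening, day 2 evening or day 4 evening, Cow 1 day 3 evening or day 3 morning, or Cow 2 day 2 evening (adjusted p between 0.0289 and 0.0487). The call against Cow 4 was lost with the library total as a covariate (limma adjusted p = 0.0515) and without both libraries of Cow 4 day 3 (0.0509) or day 4 (0.0576). By session, miR-32 stood at 8.55, 8.65 and 8.53 in the evening libraries of Cow 3, and at 7.30, 7.48 and 7.85 in the morning libraries of the same days. The difference of Cow 3 from Cow 4 was -0.39 in the evening libraries alone (limma adjusted p = 0.481) and -1.49 in the morning libraries alone (limma adjusted p = 0.0216). That from Cow 2 was -0.72 in the evening (0.182) and -1.57 in the morning (0.0130). That from Cow 1 was -0.20 in the evening (0.780) and -1.31 in the morning (0.0755). All 6 differences were negative, and the test of whether the session difference varied between cows did not pass for miR-32 (limma unadjusted p = 0.169, adjusted p = 0.969).

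miR-93, the neighbour of miR-25 in MCM7, lay between 7.41 and 8.60 log2 CPM in Cow 3 (median 7.91), 7.61 and 8.31 in Cow 1 (median 8.14), 6.04 and 8.40 in Cow 2 (median 7.24) and 7.22 and 8.56 in Cow 4 (median 7.86). All ranges overlapped. Cow 3 differed from Cow 1 by -0.19 (95% interval -0.79 to 0.41), from Cow 2 by 0.62 (95% interval 0.06 to 1.18, limma adjusted p = 0.0860) and from Cow 4 by 0.09 (95% interval -0.48 to 0.65). The intervals against Cow 2 and Cow 4 include the differences that miR-25 showed there (0.48 and 0.54), and the interval against Cow 1 does not (0.50). The difference of miR-25 from Cow 1 has its own 95% interval of 0.14 to 0.85, which overlaps that of miR-93. The ratio of miR-25 to miR-93 did not differ among the cows by the permutation test given below (adjusted p = 0.213). The difference of Cow 3 from Cow 2 passed with library medians set equal (0.82, limma adjusted p = 0.0241), with quantile normalization (0.71, 0.0438) and with the library total as a covariate (0.82, 0.0119). Equal medians also gave a call in Cow 2 minus Cow 4 (-0.72, 0.0413). Without Cow 2 day 2 evening, where miR-93 was highest in that cow, the difference of Cow 3 from Cow 2 (limma adjusted p = 0.0206) and that of Cow 2 from Cow 4 (0.0385) passed. The largest difference of miR-93 was 0.81 between Cow 1 and Cow 2 (95% interval 0.25 to 1.38, limma adjusted p = 0.0540), and this passed the test without Cow 1 day 4 morning (adjusted p = 0.0389), Cow 2 day 2 evening (0.00994), Cow 2 day 2 morning (0.0467), Cow 2 day 3 evening (0.0370) or Cow 4 day 1 morning (0.0480).

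**Figure D2:**
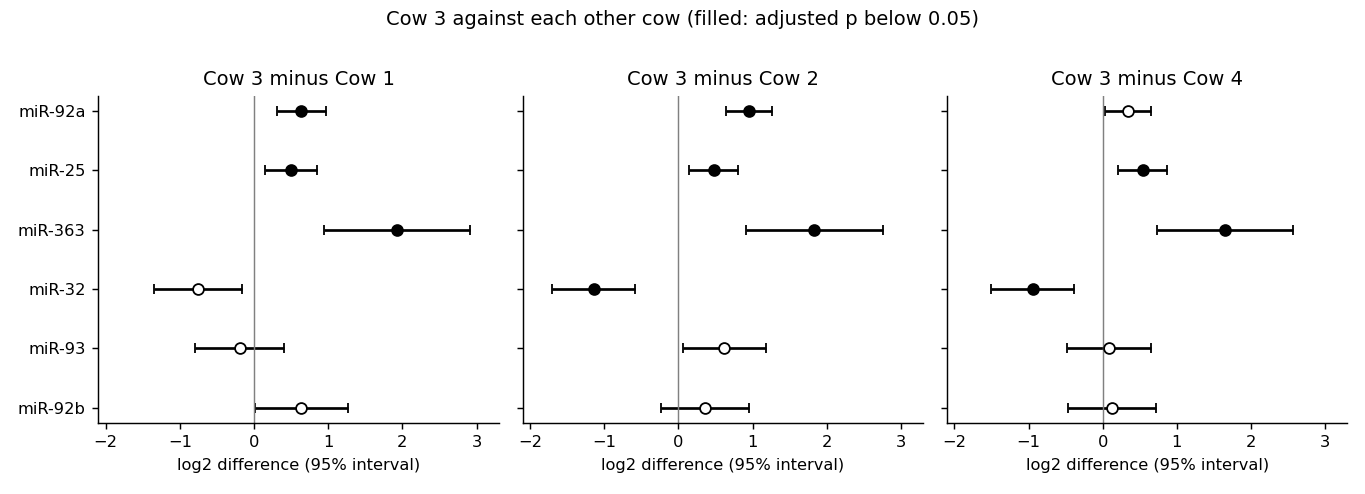
Difference in log2 CPM of Cow 3 minus Cow 1, Cow 2 and Cow 4 on the horizontal axes, with 95% intervals from limma, for the 5 members and miR-92b from top to bottom. Filled points passed an adjusted p of 0.05 over all 132 miRNAs. miR-92a, miR-25 and miR-363 lie to the right of 0 in every panel, miR-32 lies to the left (-0.75, -1.14 and -0.94), and no point of miR-93 is filled.

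Counted by comparison, 3 members passed in Cow 3 minus Cow 1, where 22.7% of all miRNAs did. In Cow 3 minus Cow 2 there were 4 (30.3% of all miRNAs) and in Cow 3 minus Cow 4 there were 3 (25.8%). The 3 comparisons share the libraries of Cow 3. No member passed in Cow 1 minus Cow 2 (9.85% of all miRNAs) or Cow 1 minus Cow 4 (5.3%), and 1 passed in Cow 2 minus Cow 4. The median difference of the members was 0.50, 0.62 and 0.34 in the comparisons of Cow 3 with Cow 1, Cow 2 and Cow 4, against -0.06, -0.02 and -0.01 over all miRNAs. Setting the library medians equal moved the median of all miRNAs to 0.11 for Cow 3 minus Cow 1, 0.18 for Cow 3 minus Cow 2, -0.11 for Cow 1 minus Cow 4 and -0.24 for Cow 2 minus Cow 4, and the differences of miR-92a, miR-25, miR-363 and miR-32 between Cow 3 and the others kept their signs under this and every other scaling tried.

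Other miRNAs moved with the same animal. The immune miRNAs measured (miR-155, miR-146b, miR-342, miR-181a and miR-181b, 5 of 8 listed) summed to 11.71 to 12.90 log2 CPM in the libraries of Cow 3 and to 10.44 to 11.52 in the others, without overlap, and 4 of the 5 passed in Cow 3 minus Cow 1 (2 higher and 2 lower), 2 in Cow 3 minus Cow 2 (both higher) and 3 in Cow 3 minus Cow 4 (2 higher and 1 lower). Most of the immune sum was miR-181a, with 9261 reads in all libraries, against 1710 for miR-181b, 1650 for miR-342, 512 for miR-146b and 175 for miR-155. The sum therefore does not stand for the immune list as a whole. The red blood cell miRNAs measured (miR-16a, miR-16b, miR-15b and miR-185, 4 of 7 listed) summed to 10.15 to 10.85 in Cow 3 and to 9.07 to 10.81 in the others. Of these 4, 0 passed in Cow 3 minus Cow 1, 2 were higher in Cow 3 minus Cow 2 and 1 was higher in Cow 3 minus Cow 4. The epithelial miRNAs (the miR-200 family and miR-375, 6 of 7 listed) summed to 16.44 to 16.65 in Cow 3 and 16.07 to 16.74 in the others. Of them, 1 was lower in Cow 3 minus Cow 1, 1 was higher in Cow 3 minus Cow 2 and 2 were higher in Cow 3 minus Cow 4. miR-451, miR-486, miR-144, miR-223, miR-150, miR-142 and miR-205 were listed but are not among the 132 miRNAs with values. The part of these cell types in the levels of the members was not tested.

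Because of its abundance, miR-92a alone set most of the pool of this seed. Together with miR-92b, the remaining measured miRNA with the seed, the seed family took 1.15% to 4.12% of the reads of a library. Its share was 3.40% ± 0.62 in Cow 3, against Cow 1 with 1.84% ± 0.25, Cow 2 with 1.75% ± 0.44 and Cow 4 with 2.19% ± 0.37 (SD, n = 6, 6, 8 and 8). Within the family, miR-92a held 76.9% to 88.8% of the reads, miR-25 held 8.0% to 16.9%, miR-32 held 0.50% to 6.0% and miR-363 at most 0.792%. Thus the lower level of miR-32 in Cow 3 (0.907% ± 0.337 of the family, against 2.57% ± 1.35 in Cow 1, 3.71% ± 1.31 in Cow 2 and 2.29% ± 0.913 in Cow 4) took place within a small part of the pool. miR-92a and miR-92b are near-identical in sequence, and the sources used here do not say how reads that match both were counted, so their split is uncertain.

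The other relatives had few reads. miR-92b, with 560 reads in all, stood at 7.24 ± 0.29 log2 CPM in Cow 3, against Cow 1 with 6.60 ± 0.67, Cow 2 with 6.88 ± 0.47 and Cow 4 with 7.11 ± 0.57 (SD, n = 6, 6, 8 and 8). miR-20a, which shares the seed of miR-93 and the cluster of MIR92A-1, had 165 reads in all and 0 in 2 libraries. Neither passed the limma F test among the cows (adjusted p = 0.279 for miR-92b and 0.718 for miR-20a).

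The ratio of 2 members within a library cancels the scaling of that library, apart from the prior count in the values. It was used to ask whether members shifted unequally between cows. For miR-363, with 0 reads in 2 libraries, the ratios also depend on that prior count. No ratio changed its side of the threshold when taken from worked back reads with 0.5 added. The mean log2 ratio of the 2 milkings of a day gave 14 values, and an F statistic among cows was set against 100000 permutations of these days, with adjustment over the 10 pairs. By this test 4 ratios differed among cows, namely miR-25 to miR-92a, miR-92a to miR-32 and miR-363 to miR-32, which share the seed, and miR-32 to miR-93, which share neither. How many ratios of other miRNAs would pass was not counted, while 47% of single miRNAs passed the limma F test among cows. The number of ratios passing therefore cannot be set against what is usual. Neither pair of a common cluster passed with all libraries, and the ratio of miR-92a to miR-363 passed without Cow 3 day 2 evening (permutation adjusted p = 0.0379) or Cow 1 day 1 morning (0.0472).

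The log2 ratio of miR-363 to miR-32 was -0.77 ± 0.51 in Cow 3, against Cow 1 with -3.45 ± 0.60, Cow 2 with -3.74 ± 0.92 and Cow 4 with -3.36 ± 0.93 (SD over 3, 3, 4 and 4 days, permutation adjusted p = 0.0245). The days of Cow 3 (-1.29 to -0.28) did not overlap with those of any other cow, the highest of which was -2.27. The log2 ratio of miR-92a to miR-32 was 6.60 ± 0.06 in Cow 3, against Cow 1 with 5.21 ± 0.95, Cow 2 with 4.50 ± 0.36 and Cow 4 with 5.31 ± 0.62 (permutation adjusted p = 0.0277), again without overlap between the days of Cow 3 and the others. These SDs and ranges are of day means, and within a day miR-32 of Cow 3 was higher in the evening by 1.03 ± 0.30 (SD). In single libraries, Cow 3 overlapped with other cows in the ratios of miR-363 and of miR-92a to miR-32. That of miR-25 to miR-32 was 3.66 ± 0.12 in Cow 3, against Cow 1 with 2.41 ± 0.91, Cow 2 with 2.05 ± 0.47 and Cow 4 with 2.18 ± 0.75, and missed the threshold (permutation adjusted p = 0.0594), which it passed without the 4 libraries above 150000 cells/mL (0.0294). By day means, miR-32 thus stood apart from its seed relatives in Cow 3 in each of these ratios.

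The log2 ratio of miR-25 to miR-92a was -2.93 ± 0.17 in Cow 3, against Cow 1 with -2.80 ± 0.07, Cow 2 with -2.45 ± 0.18 and Cow 4 with -3.13 ± 0.23 (SD over 3, 3, 4 and 4 days, permutation adjusted p = 0.0149), so that Cow 2 had the most miR-25 per miR-92a. That of miR-32 to miR-93 was 0.17 ± 0.47 in Cow 3, against Cow 1 with 0.73 ± 0.63, Cow 2 with 1.93 ± 0.44 and Cow 4 with 1.20 ± 0.38 (permutation adjusted p = 0.0149), lowest in Cow 3 and highest in Cow 2. This call was lost without Cow 3 (0.0592). The cluster pair miR-25 to miR-93 had 3.83 ± 0.56 in Cow 3, against Cow 1 with 3.14 ± 0.35, Cow 2 with 3.98 ± 0.61 and Cow 4 with 3.38 ± 0.52 (permutation adjusted p = 0.213). The pair of seed and cluster, miR-92a to miR-363, had 7.36 ± 0.46 in Cow 3, against Cow 1 with 8.66 ± 0.61, Cow 2 with 8.24 ± 0.60 and Cow 4 with 8.67 ± 0.67 (permutation adjusted p = 0.0906). Of the other 3 ratios, miR-25 to miR-363 and miR-363 to miR-93 had a permutation adjusted p of 0.0594 and miR-92a to miR-93 one of 0.172. Without Cow 3 only 1 ratio passed. Without Cow 2 none did (adjusted p between 0.0803 and 0.118 for the 4), and without Cow 4 there were 7. The call of miR-92a to miR-32 was lost without Cow 3 day 1 morning (adjusted p = 0.0550) and that of miR-25 to miR-92a without Cow 4 day 1 evening (0.0760). From 7 to 8 ratios passed without Cow 3 day 2 evening, Cow 1 day 1 morning, Cow 1 day 4 morning or Cow 2 day 3 morning.

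**Figure D3:**
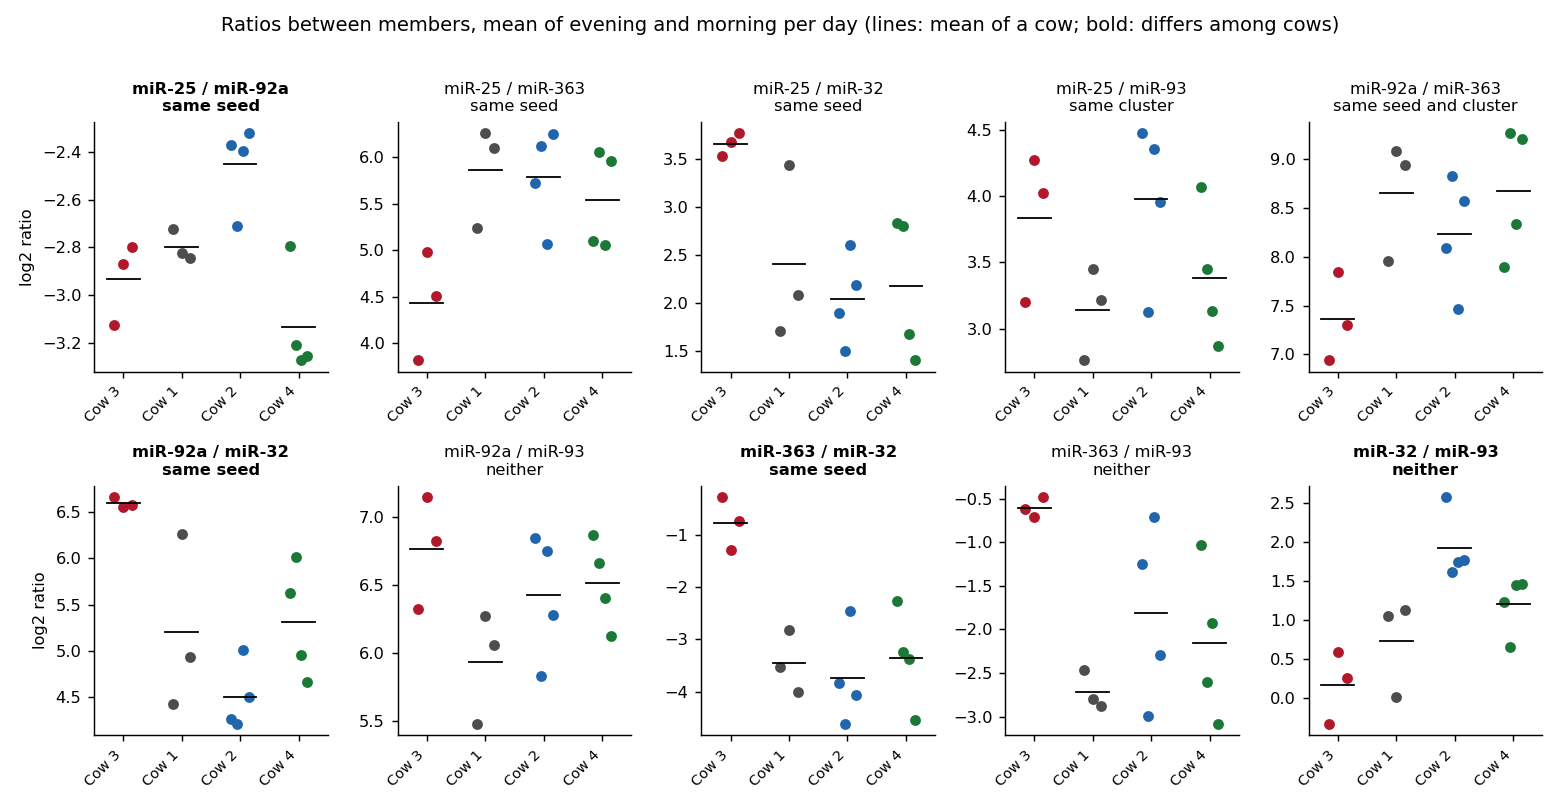
Log2 ratio of each pair of members on the vertical axes, as the mean of the evening and the morning milking of a day (points, 14 days) with the mean of each cow (lines), by cow. Bold titles mark ratios with an adjusted p below 0.05. In the ratio of miR-363 to miR-32 the 3 days of Cow 3 lie above all others (-1.29 to -0.28), and in that of miR-25 to miR-93, which share a cluster, the cows overlap (adjusted p = 0.213).

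Within cows, after removal of the cow means, 1 of the 10 pairs of members was correlated over the 28 libraries. This was miR-25 with miR-92a, which share the seed but lie on different chromosomes (Pearson's r = 0.67, exact permutation p = 0.00376, adjusted 0.0376, Spearman's rho = 0.65, exact permutation p = 0.00260, adjusted 0.0260, with whole days exchanged within each cow). Without the 2 libraries farthest from the median of miR-25, Cow 1 day 3 evening and Cow 2 day 3 morning, r was 0.54. The relation was uneven between cows, with r = 0.14 in Cow 3, while Cow 1 had 0.93, Cow 2 had 0.84 and Cow 4 had 0.22. For the r of a single cow, its libraries were exchanged freely and not as whole days, so the pairing of milkings by day was ignored. None passed alone (exact permutation of single libraries p = 0.764, 0.00972, 0.00997 and 0.614, adjusted 0.957, 0.199, 0.199 and 0.938 over 40 tests). The call over all cows was lost without Cow 1 (r = 0.55, permutation adjusted p = 0.262), without Cow 2 (0.59, permutation adjusted p = 0.295), with quantile normalization (0.17, permutation adjusted p = 0.679) and without the 4 libraries above 150000 cells/mL (0.47, permutation adjusted p = 0.214). The fall in r was largest under quantile normalization, and the fits without a cow or without these 4 libraries also hold fewer samples. The cause of these losses was not tested.

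The pairs that share a cluster did not pass this test. miR-25 and miR-93 had r = 0.02 (exact permutation p = 0.933, adjusted 0.933, rho = -0.08, exact permutation p = 0.740, adjusted 0.822, r without the 2 farthest libraries 0.11). miR-92a and miR-363 had r = -0.16 (exact permutation p = 0.527, adjusted 0.720, rho = -0.21, exact permutation p = 0.424, adjusted 0.822, r without the 2 farthest libraries -0.30). The low read number of miR-363 and miR-93 limits what such an r can show. miR-25 and miR-32 had a negative r that did not pass the adjustment (r = -0.44, exact permutation p = 0.0125, adjusted 0.0627, rho = -0.38, exact permutation p = 0.0260, adjusted 0.130, r without the 2 farthest libraries -0.35), and they passed without Cow 3 (r = -0.55, permutation adjusted p = 0.0246). As a description, the 6 pairs with a common seed had r between -0.44 and 0.67 with a median of -0.14, the 3 pairs that share neither had r between -0.13 and 0.30, and the 8646 pairs of all miRNAs had a median of 0.00 with 5% below -0.45 and 5% above 0.48. The values of a library share its scaling and its read total. miR-92b had r = 0.56 with miR-25, 0.53 with miR-92a and -0.59 with miR-32 over the same 28 libraries.

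**Figure D4:**
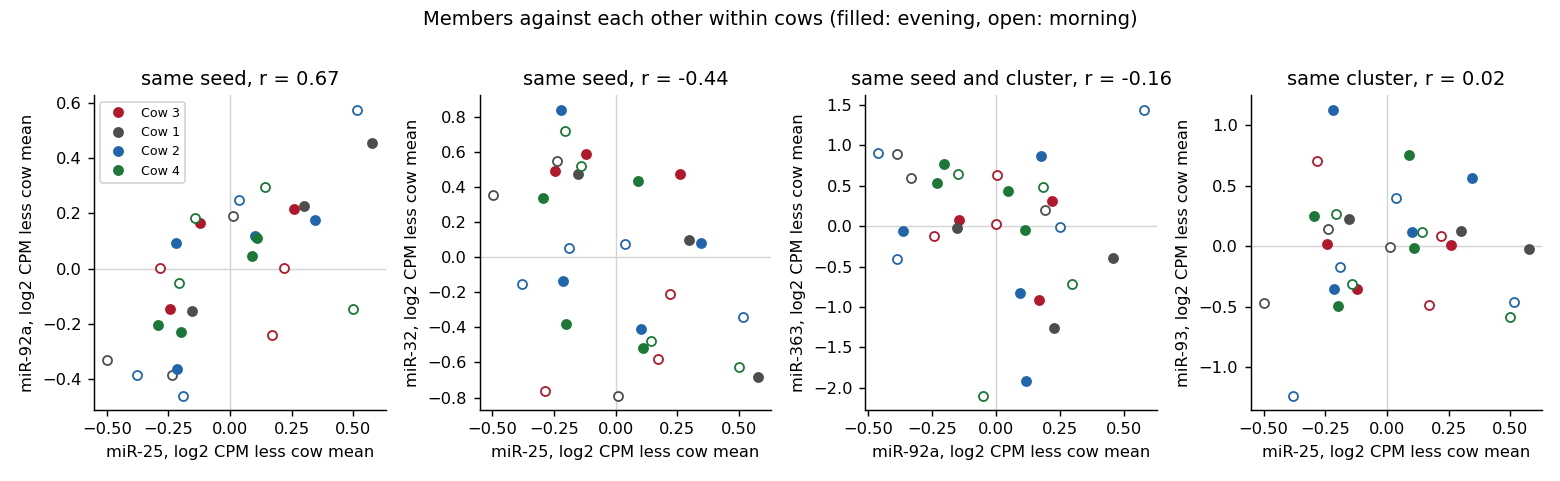
Log2 CPM less the mean of the cow for 4 pairs of members over the 28 libraries, with filled points for evening and open points for morning milkings and colours for cows. miR-25 and miR-92a rise together (r = 0.67), while r was -0.44 for miR-25 and miR-32 and -0.16 and 0.02 for the pairs that share a cluster.

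The miRNAs closest to each member by r within cows were also named, among those with a mean log2 value of at least 7. miR-200c (0.68), miR-92a (0.67) and miR-375 (0.51) were closest to miR-25, and miR-375 (0.82), miR-200c (0.70) and miR-25 (0.67) were closest to miR-92a. Both miR-200c and miR-375 stand in the epithelial list, and both are more abundant than miR-25. The same list holds miR-141 and miR-429, which were among the closest to miR-32 and to miR-363. A place in this list was thus not particular to the neighbours of miR-25 and miR-92a. miR-103 (0.65), miR-141 (0.60) and miR-29a (0.59) were closest to miR-32, and miR-2284x (0.66), miR-103 (0.66) and miR-181b (0.62) to miR-93. miR-32 and miR-93 thus had miR-103 in common, which neither miR-25 nor miR-92a had among their 3. For miR-363 the closest were miR-30b-5p (0.31), miR-429 (0.29) and miR-652 (0.28), all lower than the values of the other members. These r are descriptions over 28 libraries that share scaling.

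No member passed the test between evening and morning milkings. limma, with cow as a covariate, called 0 of the 132 miRNAs (0%), with 2 at an unadjusted p below 0.05 and 0 called by limma-voom on the reads. The evening minus morning difference was 0.05 for miR-25 (95% interval -0.19 to 0.29), 0.07 for miR-92a (-0.15 to 0.29), -0.35 for miR-363 (-0.995 to 0.29), 0.24 for miR-32 (-0.15 to 0.63) and 0.28 for miR-93 (-0.10 to 0.67), each with a limma adjusted p of 0.996. The evening value of miR-25 was the higher one in 8 of the 14 pairs, miR-92a in 7, miR-363 in 4, miR-32 in 8 and miR-93 in 9. The typical size of a difference between the 2 milkings of a day, whatever its sign, was 0.20 for miR-25, 0.20 for miR-92a, 0.63 for miR-363, 0.32 for miR-32 and 0.21 for miR-93 (medians of 14 pairs).

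In 6 of the 20 combinations of a member and a cow, all pairs of the cow had the same direction. With only 3 or 4 pairs per cow, a common direction can arise by chance. How often the other miRNAs had one was not counted. In Cow 3, the evening milking had more miR-32 than the morning milking in 3 of 3 pairs, by 1.03 ± 0.30 (SD), while the mean was -0.07 in Cow 1, 0.19 in Cow 2 and -0.07 in Cow 4. In Cow 1, miR-25 (0.48 ± 0.36) and miR-92a (0.35 ± 0.18) had more and miR-363 (-1.12 ± 0.66) had less in the evening in 3 of 3 pairs. In Cow 2, all 4 evening milkings had more miR-93 than the morning milking of that day, by 0.73 ± 0.32, and in Cow 4 all 4 had less miR-92a (-0.14 ± 0.04). The test of whether the session difference itself varied between cows did not pass for any miRNA (0%, with 1 at an unadjusted p below 0.05 by limma and 3 by limma-voom, which called 0), and gave limma adjusted p-values of 0.969 for every member (unadjusted p = 0.169 for miR-32 and 0.405 for miR-93).

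Over the collection days no member passed either. limma called 0 of the 132 miRNAs (0%), with 13 at an unadjusted p below 0.05 and 0 called by limma-voom. The lowest p of the members was that of miR-92a (F = 6.34, unadjusted p = 0.00217, limma adjusted p = 0.142). As differences from the cow means in log2, it stood at -0.23 ± 0.14 on day 1, 0.11 ± 0.19 on day 2, 0.27 ± 0.20 on day 3 and -0.06 ± 0.25 on day 4 (SD, n = 8, 6, 6 and 8 libraries). miR-25 had the same order, at -0.15, 0.02, 0.23 and -0.04. Day 3 has no library of Cow 3 and holds all 4 libraries above 150000 cells/mL, so that in Cow 1 and Cow 2 this day and a raised SCC cannot be told apart. The day 3 libraries of Cow 4, at 47000 cells/mL in the evening and 45000 in the morning, had 14.36 and 14.50 for miR-92a (cow mean 14.32) and 11.27 and 11.04 for miR-25 (cow mean 11.18). The call of miR-92a was gained when library medians were set equal (adjusted p = 0.0383) or without the libraries of Cow 3 day 2 (adjusted p = 0.0486).

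No member passed the test of a slope on SCC, in which 3 of the 132 miRNAs did (2.27%). The slope of miR-92a was 0.18 in log2 per doubling of SCC (SE 0.06, unadjusted p = 0.00499, limma adjusted p = 0.0858) and that of miR-25 was 0.19 (SE 0.06, unadjusted p = 0.00647, limma adjusted p = 0.0948), neither past the threshold. The slopes were 0.29 for miR-363 (SE 0.19), -0.14 for miR-32 (SE 0.12) and 0.16 for miR-93 (SE 0.12), with limma adjusted p between 0.550 and 0.603. Without Cow 1 day 4 evening, miR-25 (0.23) and miR-92a (0.21) passed with a limma adjusted p of 0.0340.

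The 4 libraries above 150000 cells/mL, with counts of up to 300000, were the evening and the morning milking of Cow 1 day 3 and of Cow 2 day 3. miR-25 stood at 11.80 in the evening and 11.23 in the morning of that day in Cow 1, against 10.73 to 11.52 in its 4 other libraries, and at 11.59 and 11.76 in Cow 2, against 10.87 to 11.35 in its 6 other libraries. miR-92a stood at 14.47 and 14.21 in Cow 1, against 13.63 to 14.25, and at 13.87 and 14.27 in Cow 2, against 13.24 to 13.95. So 3 of the 4 raised libraries were above the range of the rest of their cow for miR-25 and 2 of 4 for miR-92a. miR-32 went the other way in Cow 1, with 8.13 and 8.02 on that day, below its other libraries (8.91 to 9.36), and stood within the range of Cow 2 (9.28 and 8.86, against 8.79 to 10.04). miR-93 stood within the range of its cow in all 4 raised libraries, and miR-363 was outside it in 1. The seed relative miR-92b stood above the range of its cow in all 4, at 7.45 and 7.09 in Cow 1, against 5.53 to 6.78, and at 6.97 and 7.96 in Cow 2, against 6.45 to 6.94. With only 4 or 6 other libraries in a cow, a value outside their range can arise by chance. How often the other measured miRNAs stood outside it was not counted, so these counts cannot be set against what is usual.

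**Figure D5:**
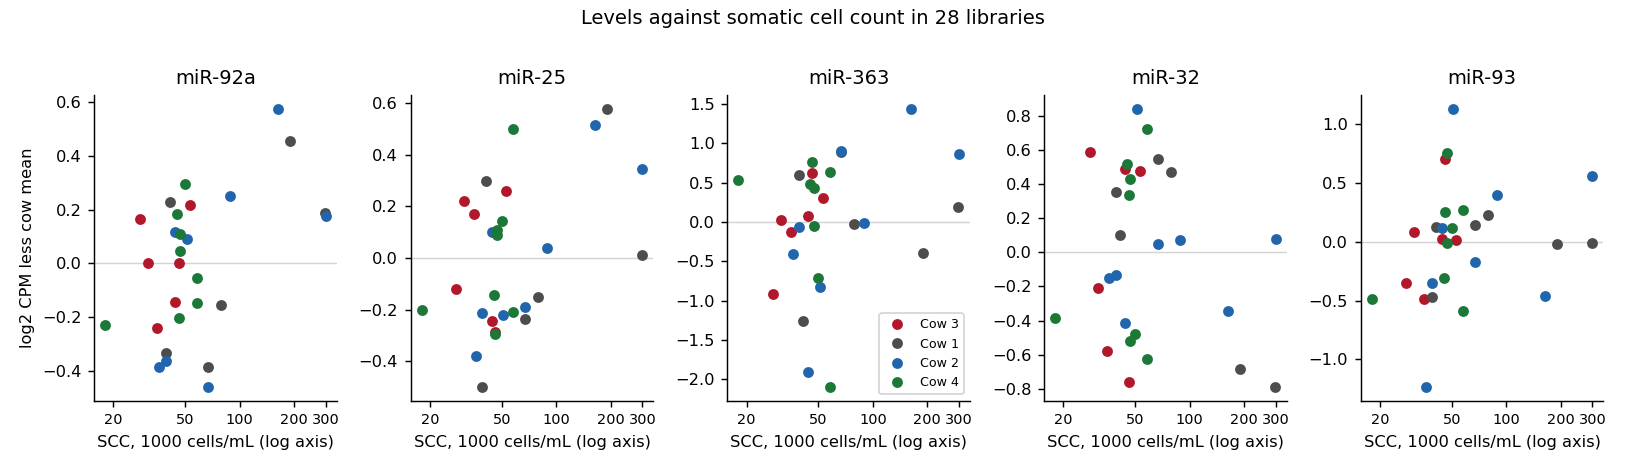
Log2 CPM of each member less the mean of its cow on the vertical axes, against the somatic cell count of the milk on a log axis, for the 28 libraries coloured by cow. The 4 libraries above 150000 cells/mL lie at or above 0 for miR-92a and miR-25, while for miR-32 both of those from Cow 1 lie below 0. No slope passed an adjusted p of 0.05.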

How the data were processed

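Small RNA of milk EVs was sequenced in 28 samples of 4 cows. Per the study's methods, fat and cells were removed by centrifugation, EVs were isolated from skim milk by acetic acid treatment, filtration and ultracentrifugation, and reads were assigned to bovine miRNAs in a Galaxy pipeline, with isomiRs counted under the canonical miRNA. The authors deposited log2 CPM for 132 miRNAs, scaled by edgeR. The deposit does not state the prior count or library sizes. A prior count of 2 and effective library sizes were worked back from the values, and the read counts and the 0-read level given here rest on them. Lower miRNAs had been removed by a CPM limit, and how reads that match several miRNAs were counted is not given in the sources used here. Every column was assigned to a sample (0 columns left out). Whole reads were worked back for all 3696 values (tolerance 0.01 reads, 0 misses). Library totals cover the 132 miRNAs only, and counting SDs cover counting error only.

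Differences were tested on the log2 values with limma 3.58.1 in R 4.3.3 (empirical Bayes with trend, moderated F or contrast tests), adjusted by Benjamini-Hochberg over 132 miRNAs at an FDR of 0.05. Cow contrasts came from a fit of 4 cow means to all libraries. Session, SCC and day were fitted with cow as a covariate. Ratios were taken as differences of the log2 values, averaged by day, and tested by 100000 permutations of the 14 days. Worked back reads with 0.5 added served as an alternative for the ratios. Correlations used cow-centred values, with exact permutation of whole days within cows. The r of a single cow was tested by exact permutation of its single libraries, which ignores the pairing by day. These used Python 3.11.15, numpy 2.4.6, pandas 2.3.3, scipy 1.17.1 and matplotlib 3.10.9. The main fits of a cow contrast, session and SCC and the tests of ratios and correlations were tested on simulated data. The day, interaction and alternative fits and the tests of r in a single cow were not.

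The milkings of a cow and day share animal and date in the labels, so the cow-day pair was taken as a block in an alternative fit. The mean correlation of deviations within pairs was 0.08 (range -0.30 to 0.52, above 0.1 in 6 of 14), against -0.20 between days of a cow. Other alternatives were other scalings, filters, an added 10 CPM, limma-voom on the reads, read total as a covariate, sessions alone, day means and libraries left out. The text names all 5 members, the measured miRNAs that share a seed with one of them, and for each member the 3 miRNAs with the highest r within cows among those with a mean log2 value of at least 7. The members, lists and tests were chosen with earlier results of these data known. The alternative without libraries above 150000 cells/mL was chosen after seeing the data for the cow comparisons, ratios and correlations. Neighbouring genes came from RefSeq (ARS-UCD2.0).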

Additional observations from a re-analysis of the deposited data

Results flagged for a closer look

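In the 20 groups of libraries examined (5 members in 4 cows), 2 held a library far from the others, where chance gives about 1 in 20. bta-miR-32 stood at 10.04 log2 CPM in Cow 2 day 2 evening, the highest of 8 libraries of that cow, and bta-miR-93 stood at 7.61 in Cow 1 day 4 morning, the lowest of 6.

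The evening level of bta-miR-92a lay above the morning level in 3 of 3 pairs of Cow 1 (mean difference 0.35 ± 0.18, SD) and below it in 4 of 4 pairs of Cow 4 (-0.14 ± 0.04), a gap of 0.49 in log2 between the cow means. The direct contrast of these 2 cows was not tested, and the limma test of the session difference across all 4 cows did not pass (unadjusted p = 0.450, adjusted p = 0.969).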

How the results depend on the processing

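Of 3499 recalculations of 75 values of single miRNAs and pairs, 3288 kept their direction and side of the threshold, 72 lost it, 70 gained it, and 69 changed sign, all of values past no threshold in either fit. With the cow-day pair as a replicate block, 3 members passed among the cows, 2 in Cow 3 minus Cow 1, 3 in Cow 3 minus Cow 2, 3 in Cow 3 minus Cow 4, 1 in Cow 2 minus Cow 4 and 0 in the tests of session, SCC, day and interaction. The calls this block ended were those of miR-25 and no others. With means of the milkings of a day, 2 members passed among the cows and 1 in Cow 3 minus Cow 4. In evening libraries alone, which hold fewer samples, 2 members passed among the cows, 1 in Cow 3 minus Cow 1, 2 in Cow 3 minus Cow 2, 0 in Cow 3 minus Cow 4 and 0 in Cow 2 minus Cow 4. In morning libraries alone 2 passed among the cows, 0 in Cow 3 minus Cow 1, 2 in Cow 3 minus Cow 2 and 0 in Cow 2 minus Cow 4. With equal library medians 1 member passed among the days and 2 in Cow 2 minus Cow 4. In Cow 1 minus Cow 2, 1 member passed with a mean log2 value of at least 7, with no trend or with robust empirical Bayes. For pairs of members, 1 ratio passed without Cow 3, 0 without Cow 2 and 7 without Cow 4, and the number of correlated pairs was 2 without Cow 3 and 0 without Cow 1, without Cow 2, with quantile normalization or without libraries above 150000 cells/mL. How many of all miRNAs passed in each alternative fit is not given here. A change in the number of members passing therefore cannot be told apart from a change over all miRNAs. Where a cause is not named it was not tested.

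The sign changes were as follows. For miR-25, Cow 1 minus Cow 2 was 0.21 in evening libraries and 0.00924 with equal medians. Cow 1 minus Cow 4 was -0.11 with equal medians, -0.27 in morning libraries, -0.0392 with quantile normalization and -0.11 without libraries above 150000 cells/mL. Cow 2 minus Cow 4 was -0.12 with equal medians, -0.0121 in morning libraries and -0.0788 without libraries above 150000 cells/mL, and evening minus morning was -0.0145 with quantile normalization and -0.0701 without Cow 1. For miR-93, Cow 3 minus Cow 4 was -0.14 in evening libraries, and Cow 3 minus Cow 1 was 0.16 with the library total as a covariate and 0.0234 in morning libraries. For miR-363, Cow 1 minus Cow 2 was 0.0445 with limma-voom and 0.34 without libraries above 150000 cells/mL, Cow 1 minus Cow 4 was 0.70 in morning libraries, and Cow 2 minus Cow 4 was 0.72 in morning libraries and 0.0885 with quantile normalization. Its SCC slope was -0.0819 with no cow covariate and -0.0306 without Cow 2. For miR-32, Cow 2 minus Cow 4 was -0.0333 with quantile normalization, Cow 1 minus Cow 4 was 0.18 without libraries above 150000 cells/mL, and the SCC slope was 0.0244 with no cow covariate, 0.0352 without Cow 1 and 0.21 without libraries above 150000 cells/mL. For miR-92a, the SCC slope was -0.0358 with no cow covariate and evening minus morning was -0.00297 without Cow 1. The r of miR-92a and miR-32 was 0.0113 with quantile normalization, 0.0803 without Cow 1 and 0.12 without libraries above 150000 cells/mL. That of miR-25 and miR-93 was -0.00521 with session means removed, -0.0387 without Cow 1 and -0.12 without Cow 2, and that of miR-25 and miR-363 was -0.21 without Cow 2, -0.0233 without Cow 4 and -0.21 without libraries above 150000 cells/mL.

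Leaving out 1 library or 1 day at a time, the members passing ranged from 1 to 3 in Cow 3 minus Cow 4 (1 without both libraries of Cow 4 day 4), 0 to 1 in Cow 1 minus Cow 2, 1 to 2 in Cow 2 minus Cow 4, 0 to 2 for SCC and 0 to 1 for days, and the ratios passing from 3 to 8. The difference of miR-93 ranged from -0.37 to 0.0159 in Cow 3 minus Cow 1 and from -0.10 to 0.30 in Cow 3 minus Cow 4. That of miR-25 ranged from -0.17 to 0.12 in Cow 1 minus Cow 2, -0.11 to 0.14 in Cow 1 minus Cow 4, -0.0788 to 0.16 in Cow 2 minus Cow 4 and -0.00925 to 0.11 in evening minus morning. That of miR-363 ranged from -0.37 to 0.29 in Cow 1 minus Cow 2 and -0.57 to 0.0908 in Cow 2 minus Cow 4. That of miR-32 ranged from -0.44 to 0.18 in Cow 1 minus Cow 4, and its SCC slope from -0.21 to 0.0520. Depth limits miR-363 most, whose 0 to 38 reads per library lie near the floor of 3 reads outside Cow 3.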
